A study of Mus musculus with 4 samples.

Results

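The genes described here are 8 genes of cholesterol synthesis and its feedback control: Hmgcs1, Idi1, Fdps, Fdft1, Sqle, Cyp51, Msmo1 and Insig1. They were taken by symbol, with earlier results of these data known, out of 16500 symbols listed in any of 4 deposited count matrices, and all 8 were listed in every matrix. The matrices hold single-cell 3′ RNA-seq counts (10x Chromium, chemistry v2) of unique molecular identifiers (UMIs, tags that count each captured RNA once). The cells were sorted live CD45.2+ leukocytes of the intraepithelial layer, the sheet of immune cells that lies among the gut's lining cells. They came from uninfected C57BL/6 mice, with 1 library each from stomach, small intestine, cecum and colon. No tissue had a replicate library, so tissue, animal, library and sequencing run cannot be told apart and no p-value was computed. All ranges in parentheses are 95% intervals that cover counting error only. The extraction text is the same for every library and speaks of colons, and the tissue label of each library was used. The number of animals behind a library is not given in the sources used here.

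Animal cells make cholesterol from acetyl-CoA in a long series of enzymatic steps. The mevalonate branch builds isoprenoid units, the squalene steps join and oxidise them, and the sterol steps turn the resulting ring system into cholesterol. When membranes of the endoplasmic reticulum run low on sterol, the SREBP transcription factors are released from their INSIG anchors and raise transcription of the whole pathway. T cells are known to draw on this pathway when they grow and divide.

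Cells were assigned by marker UMIs to gates for T cells (split into Trdc-positive, Cd8a-positive and other), B cells, NK/ILC1 cells (natural killer cells and related innate lymphocytes), macrophages and mast cells. Of 14373 barcodes kept, 13152 (91.5%) fell into 1 gate, among them 9444 T cells, 848 B cells, 483 NK/ILC1 cells, 400 macrophages and 1977 mast cells. Small intestine held 2428 T cells, cecum 3395, colon 3343 and stomach 278. Ptprc, the gene of CD45, lay between 1376 and 1553 CPM (counts per 1000000 UMIs, with UMIs summed over the gate) in the T cells of the 4 libraries. The label calls the cells intraepithelial lymphocytes, but mast cells formed 59.4% of the stomach barcodes and T cells 8.70%. Summed B markers stood at 7.67 to 79.8 CPM in T cells against 7492 CPM or more in B cells, summed macrophage markers at 6.75 to 92.1 CPM against 20749 CPM or more in macrophages, and summed mast markers at 191 to 414 CPM against 134658 CPM or more in mast cells. The gates were set by these same marker lists, and cells that passed more than 1 gate were left out. These gaps therefore follow in part from the gating and are no separate check of it. The median barcode held 1707 UMIs in the cecum library, 2305 in that of the stomach, 2475 in that of the small intestine and 2986 in that of the colon. The smallest barcode held 1581 UMIs in small intestine and 322, 361 and 291 UMIs in stomach, cecum and colon. The libraries shared 23 barcode sequences.

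Promoter sequences from RefSeq (GRCm38.p6) are shown for members that moved together between tissues, because the sterol-regulated factors act at such upstream sequences. The promoter table held 5 of the 8 members. The stretch just upstream of the annotated start is printed 5′ to 3′ on the gene's strand, up to the first annotated exon base. Capitals mark, on either strand, the sterol element searched for (TCACNCCAC), the CCAAT box (CCAAT) and the GC box (GGGCGG). These motifs were chosen after the sequences had been seen.
Hmgcs1 (chr13:119690101-119690350, + strand): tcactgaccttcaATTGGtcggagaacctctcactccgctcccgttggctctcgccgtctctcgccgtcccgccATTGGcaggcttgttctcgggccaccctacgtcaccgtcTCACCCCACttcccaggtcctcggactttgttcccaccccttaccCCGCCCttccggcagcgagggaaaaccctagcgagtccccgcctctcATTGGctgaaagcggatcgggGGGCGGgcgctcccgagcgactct
Insig1 (chr5:28071162-28071362, + strand): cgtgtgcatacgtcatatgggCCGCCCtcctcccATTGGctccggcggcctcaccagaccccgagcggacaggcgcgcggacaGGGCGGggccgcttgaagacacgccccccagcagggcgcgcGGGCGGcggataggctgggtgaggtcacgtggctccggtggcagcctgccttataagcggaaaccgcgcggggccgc
Cyp51 (chr5:4104747-4104947, − strand): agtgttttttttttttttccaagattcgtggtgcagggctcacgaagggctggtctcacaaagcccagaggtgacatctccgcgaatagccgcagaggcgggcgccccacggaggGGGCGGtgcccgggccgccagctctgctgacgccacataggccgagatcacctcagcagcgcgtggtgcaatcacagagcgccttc
In the Hmgcs1 sequence the sterol element starts 137 bases before the annotated start, and the 250 bases also hold 3 CCAAT boxes and 2 GC boxes. The windows of the other 4 members in the table, Insig1, Cyp51, Idi1 and Msmo1, hold no TCACNCCAC match. The Idi1 and Msmo1 windows are not printed, because annotated exons leave 0 and 36 bases of them. The 250 bases upstream of Insig1 hold 1 CCAAT box and 3 GC boxes, and those of Cyp51 hold 1 of each, with its CCAAT box lying in the part not shown. Among 32851 RefSeq promoter windows of the same length, 1.05% hold the sterol element, 33.8% a CCAAT box and 32.7% a GC box. A match is a description of letters, and a missing match says only that these letters are absent from the window.

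The mevalonate enzymes came first in the pathway and showed the highest T cell levels in small intestine. Hmgcs1 (chromosome 13, 119690379 to 119708260 in GRCm38, + strand) encodes the synthase that makes HMG-CoA, an early intermediate of the mevalonate branch. Its T cell level was 247 CPM (235–260) in small intestine, 147 CPM (138–157) in cecum, 102 CPM (96.0–108) in colon and 75.4 CPM (57.4–97.3) in stomach. The intervals of small intestine, cecum and colon were separate, and those of colon and stomach overlapped. Fdps (chromosome 3, 89093588 to 89101959, − strand), which makes farnesyl diphosphate, followed the same order with 210 CPM (199–221), 124 CPM (116–133), 93.8 CPM (88.2–99.6) and 72.9 CPM (55.2–94.4). Idi1 (chromosome 13, 8885501 to 8892451, + strand), the isomerase that feeds Fdps, gave few UMIs in every library. It stood at 11.3 CPM (8.87–14.2) in small intestine, 6.61 CPM in cecum, 5.35 CPM in colon and 5.12 CPM in stomach, the last from 4 UMIs, and each interval overlapped its neighbour's. Idi1 stayed under the 20 CPM that a gene needed in either sum to enter a comparison, so 7 of the 8 members entered the T cell comparisons.

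Both squalene enzymes were highest in small intestine, with smaller gaps among the other libraries. Fdft1 (chromosome 14, 63145150 to 63179578, − strand), the squalene synthase, measured 68.8 CPM (62.6–75.5) in small intestine, 34.5 CPM (22.8–50.2) in stomach, 28.1 CPM (24.2–32.4) in cecum and 27.6 CPM (24.6–30.8) in colon. The last 3 intervals overlapped in that order. Sqle (chromosome 15, 59315077 to 59331192, + strand), squalene epoxidase, which oxidises squalene before the sterol ring is closed, measured 97.7 CPM (90.2–106) in small intestine, 51.5 CPM (46.2–57.3) in cecum, 39.6 CPM (26.9–56.3) in stomach and 37.8 CPM (34.3–41.5) in colon. Only the stomach interval overlapped those of cecum and colon.

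Cyp51, Msmo1 and Insig1 were high in cecum as well. Cyp51 (chromosome 5, 4081145 to 4104746, − strand), the lanosterol demethylase, measured 172 CPM (162–183) in small intestine, 128 CPM (119–137) in cecum, 88.2 CPM (68.7–112) in stomach and 85.3 CPM (80.0–90.8) in colon. Msmo1 (chromosome 8, 64718139 to 64733792, − strand), the methylsterol oxidase that acts after Cyp51, measured 120 CPM (112–129) in small intestine, 105 CPM (97.1–113) in cecum, 63.6 CPM (59.1–68.4) in colon and 62.7 CPM (46.4–82.8) in stomach. Insig1 (chromosome 5, 28071363 to 28078662, + strand), the feedback protein that anchors SREBP and is itself an SREBP target, measured 203 CPM (192–215) in small intestine, 193 CPM (183–204) in cecum, 103 CPM (97.2–109) in colon and 48.6 CPM (34.4–66.7) in stomach. For Msmo1 and Insig1 the small intestine and cecum intervals overlapped, whereas for Insig1 the stomach fell clearly below the colon. No single cell held more than 1.11% of the UMIs of any of the 7 entered genes in small intestine T cells. In stomach, 1 cell held 13.2% of the 38 Insig1 UMIs.

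**Figure D1:**
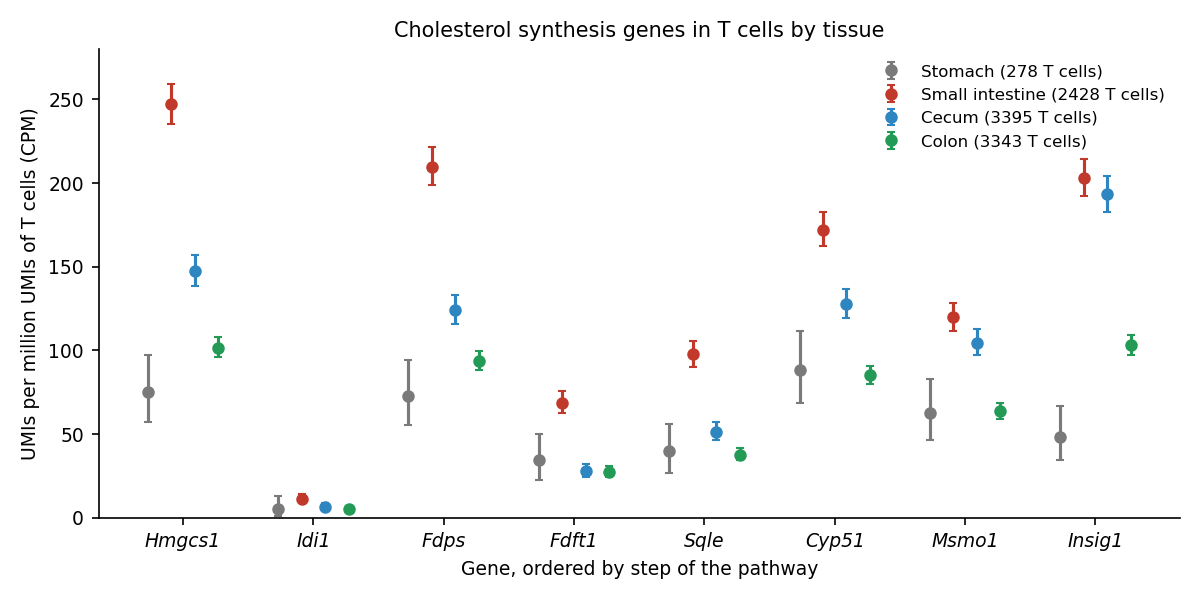
Level (CPM) of each gene in T cells of the 4 libraries, with exact Poisson 95% intervals as bars (counting error only). Small intestine is highest for all 8 genes, cecum lies next to small intestine for Msmo1 (105 against 120 CPM) and Insig1 (193 against 203 CPM), and cecum lies next to colon for Fdft1 (28.1 against 27.6 CPM).

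Small intestine against colon was the widest contrast among the 3 libraries with over 1000 T cells. All 7 entered members were at least 1.5-fold higher in small intestine T cells, where 11.7% of the 7344 genes entered were higher and 9.5% lower by that fold. Ratios ran from 1.88 (1.70–2.09) for Msmo1 to 2.59 (2.28–2.93) for Sqle. Between them stood Insig1 at 1.97 (1.82–2.14), Cyp51 at 2.02 (1.85–2.20), Fdps at 2.24 (2.06–2.43), Hmgcs1 at 2.43 (2.25–2.62) and Fdft1 at 2.49 (2.15–2.89). The median log2 ratio of the 7 was 1.16, and that of all genes entered was 0.01. Ranked from the highest ratio down, the 7 members lay between rank 110 (Sqle) and rank 296 (Msmo1) of the 7344 genes. Over 11 settings that changed scaling, depth, pooling or filters, their log2 ratios stayed between 0.84 and 1.57. The setting with no minimum of UMIs or CPM changes only which genes enter, so its ratios equal the main ones by construction.

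Small intestine exceeded cecum for the members that act up to squalene oxidation, and less for the others. Hmgcs1 (1.68-fold, 1.55–1.82), Fdps (1.69-fold, 1.55–1.84), Sqle (1.90-fold, 1.66–2.17) and Fdft1 (2.45-fold, 2.06–2.92) passed 1.5-fold in small intestine. Cyp51 (1.35-fold, 1.23–1.47), Msmo1 (1.14-fold, 1.03–1.27) and Insig1 (1.05-fold, 0.97–1.14) did not. Thus 4 of 7 members were higher and 0 lower, beside 12.4% of all genes entered higher and 11.4% lower. The difference between these groups of genes was not tested.

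Among the members, cecum exceeded colon most for Insig1 and Msmo1. Insig1 was 1.88-fold (1.73–2.03) and Msmo1 1.65-fold (1.48–1.83) higher in cecum, and Cyp51 (1.37–1.65) lay just under the threshold of 1.5-fold. Hmgcs1 stood at 1.45-fold (1.33–1.58), Sqle at 1.36-fold (1.18–1.58), Fdps at 1.32-fold (1.21–1.45) and Fdft1 at 1.02-fold (0.845–1.22). The intervals of Cyp51 and Hmgcs1 overlapped. So 2 of 7 members were higher and 0 lower, where 3.62% of all genes entered were higher and 4.26% lower. With each T cell thinned to 1000 UMIs, 4 of 7 were higher. Both contrasts with cecum share its sum, so their values do not stand as independent of each other.

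Stomach T cells had the lowest level of 5 of the 8 members. Of these, only Insig1 had an interval clear of that of colon. All 7 entered members were lower than in small intestine by at least 1.5-fold, where 24.6% of all genes entered were lower and 14.2% higher. The gap was widest for Insig1, which was 4.18-fold (3.03–5.94) higher in small intestine, and for Hmgcs1 at 3.27-fold (2.53–4.32). It was narrowest for Msmo1 at 1.91-fold (1.43–2.61). Against colon, 1 of 7 members was lower in stomach, beside 20.4% of all genes, and 0 were higher, beside 13.4%. That member was Insig1, 2.12-fold (1.53–3.01) higher in colon, while the ratio of stomach to colon was 1.03 (0.80–1.32) for Cyp51, 1.05 (0.70–1.51) for Sqle and 0.985 (0.72–1.32) for Msmo1. With cells thinned to 1000 UMIs, 4 of 7 members were lower in stomach than in colon. The stomach sum rests on 278 T cells and 781998 UMIs.

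Other expression programs differed between the same T cell sums, and their part in these results was not tested. The immediate early list holds 10 genes that respond fast to stimulation and to cell isolation, among them the heat-shock genes Hspa1a and Dnajb1. All 10 were at 20 CPM or more in the T cells of every library. Their summed level was 22549 CPM in stomach, 14501 CPM in cecum, 8688 CPM in colon and 8496 CPM in small intestine. Of these sums, Hspa1a alone made up 4705 CPM in stomach, 1735 CPM in cecum, 736 CPM in colon and 765 CPM in small intestine. The 8 markers of circulating or naive T cells summed to 280 CPM in small intestine against 853 CPM in stomach, 1206 CPM in colon and 1508 CPM in cecum. Among T cells with fewer than 2 UMIs of that list, the 8 members summed to 1164 CPM in small intestine, 864 CPM in cecum, 560 CPM in colon and 429 CPM in stomach. In all T cells these sums were 1130 CPM (1104–1156), 784 CPM (763–805), 518 CPM (505–532) and 427 CPM (383–475). The order of the 4 libraries was the same in both sets of cells. A cut of 2 UMIs depends on depth, so cells of circulating type can remain below it, and their part was not tested.

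The share of T cells with a UMI of any member followed the same order after thinning to 1000 UMIs per cell. It was 60.2% (58.2–62.1%) in small intestine, 47.7% (46.0–49.4%) in cecum, 33.0% (31.4–34.6%) in colon and 23.0% (18.2–28.4%) in stomach. Thinning left out 55 cecum cells and 7 colon cells as too shallow. Without thinning the shares were 85.0%, 65.4%, 63.0% and 51.4%, so the cecum and colon, which differ most in depth, came close to each other. Every nucleated cell type can express these genes, so none of the gates serves as a background for free RNA.

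The small intestine library was rich in Trdc-positive cells, which carry the delta chain of the gamma-delta T cell receptor: 1661 of its 2428 T cells, against 514 in cecum, 920 in colon and 50 in stomach. The tissue contrast was therefore repeated within each T cell gate. A cell was placed in Trdc-positive or, failing that, Cd8a-positive with 1 UMI, so other T cells can include cells whose receptor UMIs were not captured. Between small intestine and colon, 7 of 7 members were at least 1.5-fold higher in Trdc-positive cells (11.1% of all genes), 7 of 7 in Cd8a-positive cells (13.2%) and 6 of 7 in other T cells (18.0%). The member that missed was Fdft1 at 1.49-fold (0.84–2.51), from 19 and 64 UMIs. The size of the ratio varied between gates for some members. Hmgcs1 stood at 2.65-fold (2.35–2.99) in Trdc-positive, 2.09-fold (1.81–2.41) in Cd8a-positive and 1.62-fold (1.25–2.08) in other T cells. Msmo1 had the opposite order of gates, with 1.59-fold (1.37–1.86), 2.10-fold (1.74–2.52) and 2.50-fold (1.85–3.36). The intervals of Trdc-positive and other T cells were separate for Hmgcs1 and just overlapped for Msmo1.

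The split by step seen over all T cells held only in part within gates. Between small intestine and cecum, 4 of 7 members were higher in Trdc-positive cells (12.9% of all genes), 2 in Cd8a-positive cells (13.7%) and 2 in other T cells (16.2%). Fdft1 and Sqle passed in Cd8a-positive cells, at 2.41-fold (1.74–3.35) and 1.74-fold (1.36–2.24), and Fdps and Sqle in other T cells. In other T cells Hmgcs1 stood at 1.17-fold (0.91–1.48), below Msmo1 at 1.35-fold (1.02–1.75). Insig1 stayed level, at 1.08-fold (0.93–1.26), 1.05-fold (0.90–1.22) and 0.90-fold (0.72–1.13) in the 3 gates. Between cecum and colon, 3 of 7 were higher in Trdc-positive cells (7.38%), 5 in Cd8a-positive cells (5.21%) and 4 in other T cells (3.98%). Insig1 passed in each of these, with 1.77-fold (1.49–2.09), 1.87-fold (1.64–2.12) and 2.10-fold (1.81–2.45). Fdft1 passed in none, at 1.17-fold, 1.05-fold and 1.04-fold.

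Stomach gates held few T cells, 50 each of Trdc-positive and Cd8a-positive cells and 178 others. Against small intestine, 6 of 7 members were lower in Trdc-positive cells (28.0% of all genes), 7 in Cd8a-positive cells (33.6%) and 6 in other T cells (23.6%). Against colon, 1 of 7 was lower in Trdc-positive cells (25.9%), 4 in Cd8a-positive cells (30.0%) and 1 in other T cells (20.4%), while 1 was higher in other T cells (14.5%). In the contrast with colon, 1 of 7 lies near the background share for both Trdc-positive and other T cells. The largest single gap, Hmgcs1 in stomach Cd8a-positive cells, rests on 3 UMIs.

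**Figure D2:**
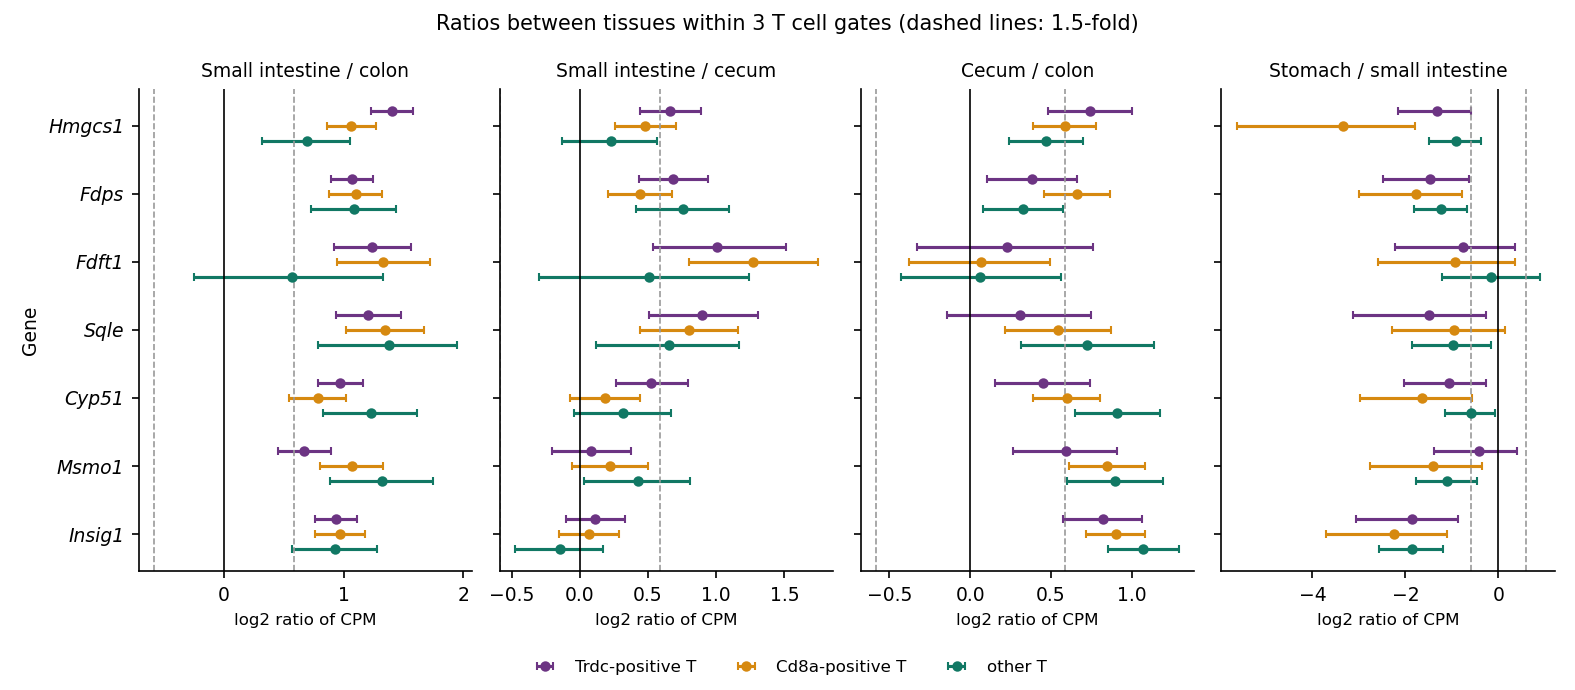
log2 ratios of CPM between tissues for 7 genes, drawn within Trdc-positive, Cd8a-positive and other T cells, with exact 95% intervals as bars (counting error only); the axis range differs between panels. In the panel of small intestine over colon every point lies right of 0, and in that of small intestine over cecum Insig1 lies near 0 in all 3 gates while Fdft1 and Sqle lie to the right.

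Within a library, few members differed by 1.5-fold between T cell gates. In small intestine, Trdc-positive cells exceeded other T cells by at least 1.5-fold for 2 of 7 members, where 9.13% of all genes did so. These were Fdft1 (2.06-fold, 1.3–3.46) and Hmgcs1 (1.72-fold, 1.38–2.18). In cecum 0 of 7 passed (3.58%), in colon 1 of 7 (5.77%), namely Sqle at 1.52-fold (1.15–2.03), and in stomach 0 of 7 (11.8%). With stricter gates the call of Sqle in colon ended, leaving 0 members higher, and 1 was higher in small intestine, 1 in cecum and 2 in stomach. With cells thinned to 1000 UMIs, 2 were higher and 1 lower in colon, and the mean over cells gave 2 higher in stomach. Cd8a-positive cells exceeded other T cells for 1 of 7 in small intestine (10.6%), again Fdft1 at 1.95-fold (1.18–3.38), and for 0 of 7 in cecum (1.93%) and colon (3.21%). The call of Fdft1 ended with stricter gates. In stomach 2 of 7, Hmgcs1 and Cyp51, were lower in Cd8a-positive cells (21.9%), from 3 and 7 UMIs. After thinning 0 members were lower there, with Hmgcs1 at 1 against 9 UMIs and Cyp51 at 4 against 12, both under the 20 UMIs needed to enter, and the log2 ratio of Cyp51 turned to 0.25. Summed over all 8 members, Trdc-positive cells stood at 1164 CPM, Cd8a-positive cells at 1104 CPM and other T cells at 906 CPM in small intestine, against 555, 532 and 442 CPM in colon.

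Dividing T cells, with 2 or more UMIs of mitosis and replication genes, formed 6.67% of T cells in small intestine, 1.65% in cecum, 5.59% in colon and 5.04% (14 cells, not compared) in stomach. Fdps had the highest ratio of dividing to other T cells among the entered members, at 2.34-fold (1.82–2.96) in cecum and 2.38-fold (2.05–2.76) in colon, and at 1.43-fold (1.23–1.66) in small intestine. In cecum 3 of 7 members were higher in dividing cells (17.2% of all genes), namely Fdps, Fdft1 (1.75-fold, 0.91–3.07) and Cyp51. In colon 2 of 7 were higher (9.29%), namely Fdps and Cyp51. In small intestine 1 of 7 was lower (13.4%): Msmo1 at 0.62-fold (0.46–0.81), with Insig1 at 0.68-fold (0.55–0.83) beside it. With cells thinned to 1000 UMIs, 2 members were higher and 1 lower in cecum, 5 higher and 1 lower in colon, and 3 lower in small intestine. Thinned, Fdft1 in dividing cecum cells rested on 1 UMI and turned to a log2 ratio of −0.40. Dividing T cells were deeper, with a median of 4866 UMIs against 1754 over all T cells in cecum and 5743 against 3007 in colon, and the part of depth was not tested. Without dividing cells the 8 members summed to 1138 CPM in small intestine, 771 CPM in cecum, 492 CPM in colon and 428 CPM in stomach, close to the sums over all T cells.

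In B cells the entered members were also higher in cecum than in colon, and the Insig1 ratio was close to that in T cells. Hmgcs1 in B cells was 104 CPM (83.2–130) in cecum and 38.0 CPM (20.8–63.8) in colon, Msmo1 was 102 and 27.1 CPM, and Insig1 was 160 CPM (133–190) and 86.9 CPM (59.4–123). All 7 entered members were at least 1.5-fold higher in cecum B cells, where 15.3% of all genes were. Ratios ran from 1.84 (1.24–2.80) for Insig1 to 3.76 (1.94–8.13) for Msmo1, and the interval of Fdft1, from 18 and 3 UMIs, reached from 0.81 to 14.7. The intervals of Insig1 and Msmo1 overlapped, so the order of the members in B cells is not resolved. Stomach B cells were lower than cecum B cells for 5 of 6 entered members (29.8% of all genes). The cecum gate held 556 B cells at a median of 1213 UMIs, the colon gate 180 at 1922, and dividing markers summed to 715 CPM in the former and 67.9 CPM in the latter. The part of these markers in the result was not tested. In small intestine 36 B cells, with dividing markers at 3184 CPM, gave 920 CPM (752–1115) for the 8 members, against 648 CPM (593–707) in cecum, 299 CPM (245–360) in colon and 295 CPM (221–385) in stomach.

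Set against T cells of the same library, B cells were lower for 4 of 7 members in stomach (33.5% of all genes lower), 1 of 7 in cecum (25.8%) and 4 of 7 in colon (29.4%). The colon gap was 3.39-fold (1.15–16.5) for Fdft1, 2.68-fold (1.59–4.91) for Hmgcs1, 2.47-fold (1.46–4.53) for Fdps and 2.34-fold (1.27–4.91) for Msmo1. Insig1 in colon B cells, at 0.84-fold (0.57–1.20) of T cells, was not separated from them. The stomach calls rest on 1 to 10 B cell UMIs per gene, and 0 members were lower and 1 was higher there after thinning to 1000 UMIs. In cecum the count of members lower was 3 with the mean over cells, 3 without dividing cells and 2 with no minimum, whereas cells with 1600 or more UMIs gave 0 lower and 2 higher.

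NK/ILC1 cells held few UMIs of these genes outside stomach. The 8 members summed to 591 CPM (450–763) in 50 cecum cells, 544 CPM (405–715) in 39 small intestine cells, 370 CPM (332–410) in 334 stomach cells and 363 CPM (281–461) in 60 colon cells. Against T cells, 1 of 7 members was lower in stomach (9.58% of all genes), namely Fdft1. In cecum 2 of 7 were lower (22.9%) and 1 higher (19.3%), and in colon 3 of 7 were lower (17.7%). Without the top cell of each gene, 4 were lower in cecum and 6 in colon. Thinned to 1000 UMIs, 4 were lower in cecum, and 5 lower and 1 higher in colon, where stricter gates and leaving out dividing cells each gave 5 lower. In stomach 0 were lower thinned and 2 with stricter gates. Between cecum and colon 3 of 4 entered members were higher (15.1%) and 1 lower (16.7%), and between stomach and colon 1 of 7 was higher (19.9%) and 2 lower (19.0%). Among these ratios between tissues, the one entered member whose interval excluded 1 was Msmo1 between cecum and colon, at 3.70-fold (1.40–10.8) from 14 and 7 UMIs. Idi1 had 0 UMIs in cecum NK/ILC1 cells, which allows up to 30.1 CPM.

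Mast cells had the lowest sum of the 8 members of any gate in stomach and in small intestine, though not clear of every other gate. In stomach the mast cell interval overlapped those of B cells (221–385) and Cd8a-positive T cells (232–429). In small intestine it overlapped those of macrophages and NK/ILC1 cells. Stomach macrophages summed to 353 CPM (324–385), with 476 CPM (370–604) in 37 small intestine cells and 420 CPM (352–498) in 49 colon cells. Against stomach T cells 1 of 7 members, Hmgcs1, was lower at 0.60-fold (0.41–0.86), where 44.0% of all genes were lower, and Insig1 stood at 1.34-fold (0.91–2.0). Stomach mast cells summed to 220 CPM (206–234) and small intestine mast cells to 380 CPM (289–490). In them 7 of 7 members were lower than in T cells both in stomach (44.8% of all genes lower) and in small intestine (43.0%). The 12 mast markers alone summed to 134658 CPM in stomach mast cells and 148898 CPM in small intestine mast cells. The median log2 ratio of all genes entered was −0.48 in stomach and −0.42 in small intestine, and −0.45 for macrophages. With TMM factors, which scale by the middle range of genes, these medians were 0.06, −0.16 and 0.07, and 2 of 7 members were lower in stomach mast cells and 7 of 7 in those of small intestine. For stomach macrophages TMM scaling gave 0 members lower and 1 higher.

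In stomach mast cells those 2 were Fdft1 and Insig1, which before TMM scaling were 3.47-fold (2.06–5.75) and 3.39-fold (2.2–5.16) lower than in T cells. In small intestine mast cells the same pair had the widest gaps, at 5.34-fold (1.47–44.2) and 5.26-fold (2.41–14.4) lower, from 2 and 6 UMIs. Between tissues, mast cells of stomach were lower than those of small intestine for 4 of 6 entered members (30.2% of all genes). Hmgcs1 stood at 49.95 CPM (43.5–57.1) in stomach and 103 CPM (58.9–167) in small intestine, 2.06-fold (1.16–3.43) higher in the latter. It was the one entered member of that comparison whose interval excluded 1.

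**Figure D3:**
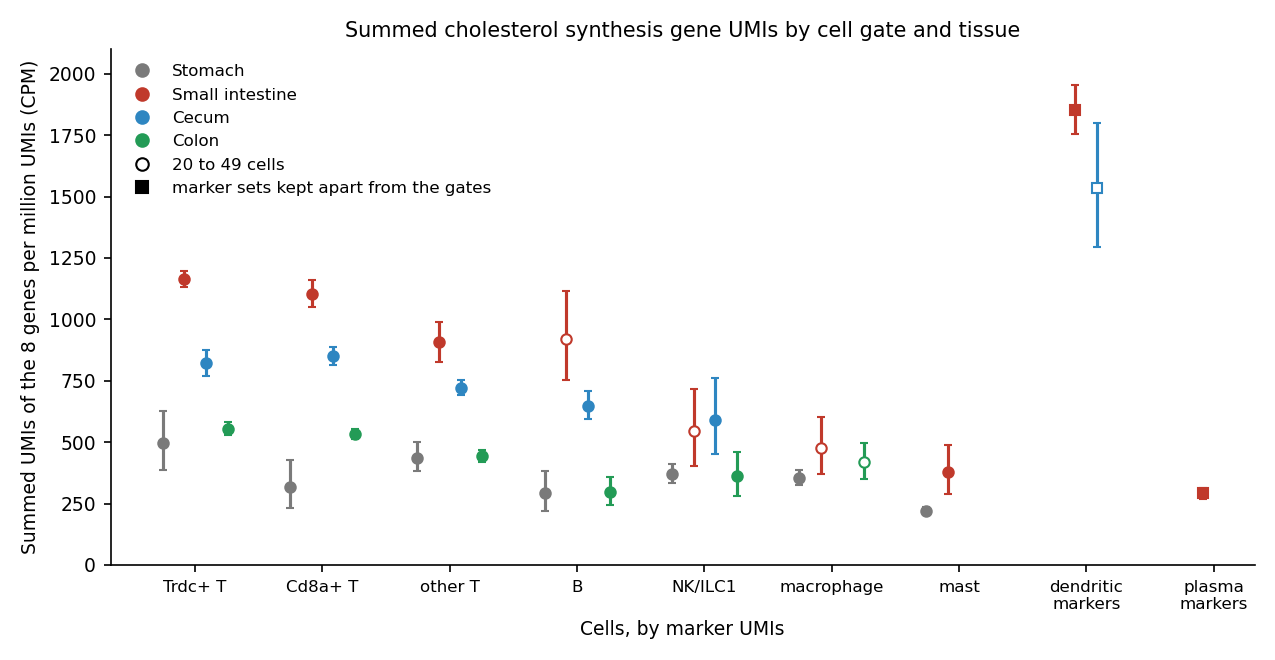
Summed level of the 8 genes (CPM) in each cell gate and library, with exact Poisson 95% intervals (counting error only); open symbols have 20 to 49 cells and squares are cells with dendritic or plasma markers, which are in no gate. Within each T cell gate small intestine is highest and cecum second, and the small intestine cells with dendritic markers lie above all gates at 1853 CPM.

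The rest of the pathway was read from lists of related genes. Of 15 other synthesis enzymes, 14 entered the contrast of small intestine against colon in T cells; 11 were higher by 1.5-fold and 0 lower, and the median of their log2 ratios was 0.83. Lss, which closes the sterol ring, was 3.0-fold (2.33–3.89), Pmvk of the mevalonate branch 2.38-fold (2.07–2.75) and Dhcr7, the last step on an alternative branch, 2.05-fold (1.80–2.33) higher. Ebp, Ggps1 and Lbr did not pass, at 0.95-fold, 1.06-fold and 1.29-fold; they were named after their values were seen.

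Genes of SREBP control, sterol export and fatty acid synthesis were read in the same contrast of T cells. Of 5 entered SREBP control genes 2 were higher and 0 lower: Srebf1 at 2.53-fold (2.20–2.92) and Srebf2 at 1.78-fold (1.61–1.97). Of 4 entered genes of export, oxysterols and ester storage, the ester-forming enzyme Soat2 was higher at 2.94-fold (2.48–3.49), and the exporter Abcg1, named after its value was seen, was lower at 0.56-fold (0.51–0.62). Of 8 fatty acid synthesis genes 3 were higher and 0 lower, among them the desaturase Fads1 at 2.21-fold (1.70–2.87). The background for each of these counts is the 11.7% higher and 9.5% lower given above.

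Across the other T cell contrasts the lists behaved unevenly. Small intestine exceeded cecum for 6 of 14 other synthesis enzymes, where 12.4% of all genes entered were higher. Among the 6 were Lss at 4.56-fold (3.19–6.67) and Dhcr7 at 2.07-fold (1.78–2.41), both steps after squalene oxidation. Soat2 was 5.41-fold (4.18–7.09), Srebf1 2.04-fold (1.75–2.39) and Srebf2 1.73-fold (1.54–1.95) higher in small intestine than in cecum. Cecum exceeded colon for 0 of 12 other synthesis enzymes, where 3.62% of all genes entered were higher. Srebf1 stood at 1.24-fold (1.05–1.47) and Srebf2 at 1.03-fold (0.91–1.16) in the same contrast. Stomach was lower than small intestine for 11 of 14 other synthesis enzymes (24.6% of all genes entered) and higher for 1 (14.2%). The higher one was Ebp, named after its value was seen, at 1.52-fold (1.20–1.89). Lss (4 UMIs in stomach) and Hsd17b7 were 5.09-fold (1.95–18.9) and 3.73-fold (1.86–8.73) lower there. Srebf1 was 2.46-fold (1.63–3.88) and Srebf2 1.97-fold (1.46–2.71) lower. Against colon, stomach T cells stood at 1.03-fold (0.65–1.56) for Srebf1 and 0.91-fold (0.66–1.22) for Srebf2.

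**Figure D4:**
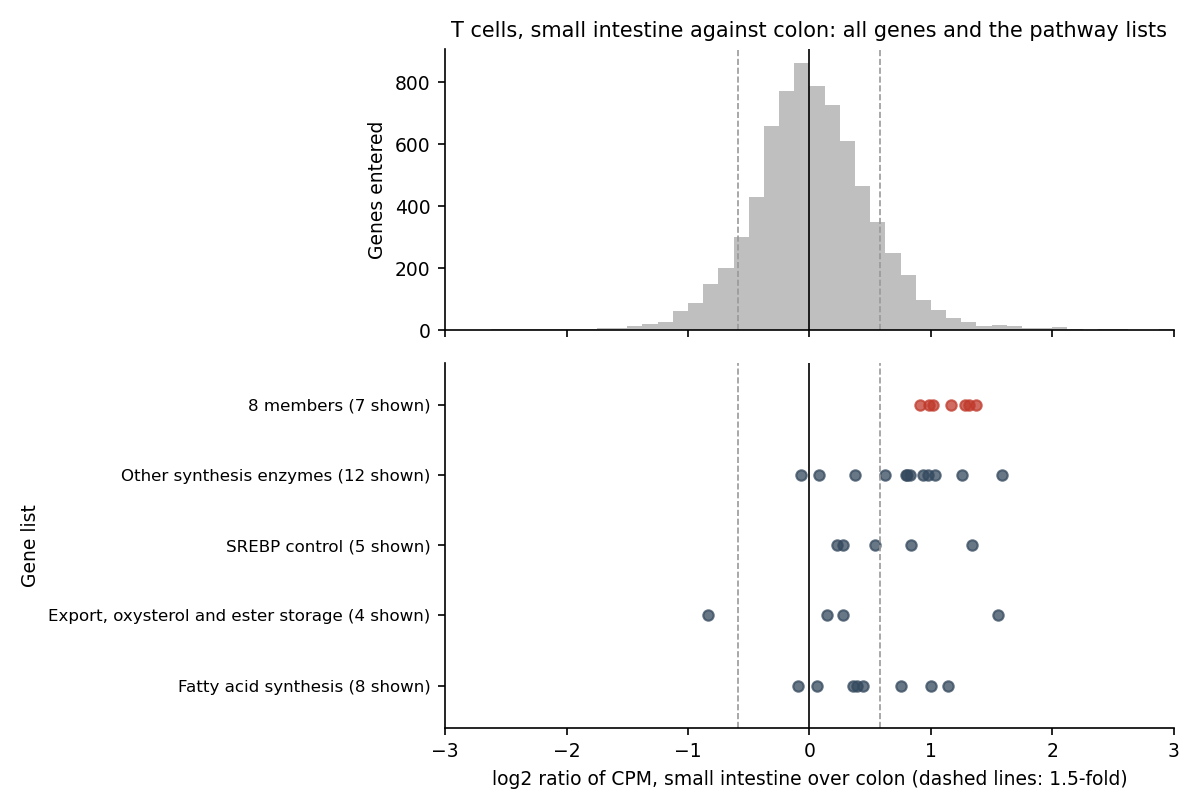
Top, number of genes by log2 ratio of CPM in T cells of small intestine over colon, for the 7344 genes entered; bottom, genes of the 8 members (7 entered, without Idi1) and of 4 related lists (12 of the 14 other synthesis enzymes), with dashed lines at 1.5-fold. The members lie between 0.91 and 1.37, and among the other synthesis enzymes shown Lss lies farthest right at 1.59.

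The members varied together across 21 sums of gate and library, each of 50 or more cells. Pearson correlations of log2(CPM + 10) between each member and the mean of the 8 ranged from 0.68 for Idi1 to 0.93 for Cyp51. They are descriptions over sums that share libraries and depth, 12 of them T cell sums, and the mean includes the member itself. Between pairs of members the correlation ran from 0.41, for Idi1 with Fdft1, to 0.90, for Hmgcs1 with Fdps. Among 7021 other genes, 9 of the 10 most like the mean of the 8 were Rad23b (r = 0.90), Ccr9 (0.87), Mbd2 (0.86), Agfg1 (0.84), Ptpn11 (0.83), Ddx17 (0.83), Ppp6r3 (0.83), Arrdc3 (0.82) and Ttc3 (0.82). Of the other synthesis enzymes, Acat2 ranked 11, Dhcr7 23 and Mvd 27, whereas Ebp (r = 0.12) and Ggps1 (r = 0.04) showed no such likeness. Ccr9, a chemokine receptor of gut-homing cells, followed the mean over the 12 T cell sums (r = 0.89) but little over the other 9 (r = 0.23), while Rad23b did so in both (0.81 and 0.84). In those other 9 sums Ccr9 stood at only 0 to 16.2 CPM, which leaves little range to correlate.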

How the data were processed

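The deposited files are 4 matrices of UMI counts per gene symbol and barcode, with gene and barcode lists. The counts are whole numbers and were taken as raw, per the file headers and values; the submitters' processing notes name Cell Ranger, Seurat 3.0.0 and the build GRCm38 (mm10). How reads shared between near-identical gene copies were counted is not given in the sources used here. No ribosomal protein or mitochondrial symbol is listed, so CPM totals lack them. The libraries held 8568438 (cecum), 9022713 (stomach), 11750691 (small intestine) and 12988676 UMIs (colon).

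Barcodes with under 200 listed genes were removed (5 of 14378). Gates, whose thresholds were set after seeing the files, required 2 UMIs of Cd3d, Cd3e or Cd3g for T cells, 3 of 8 B or macrophage markers, 5 of 12 mast markers, and 2 of 5 NK/ILC1 markers without a Cd3 UMI. Left out were 571 barcodes that passed more than 1 gate, or 1 gate together with plasma, dendritic or epithelial markers. This can also remove doublets, and no doublet caller was run. A further 299 with plasma, dendritic or epithelial markers and no gate were set apart, and 351 had neither a gate nor such markers. Gates with 50 or more cells per library were compared, and levels were given from 20 cells.

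UMIs were summed per gate and library with Python 3.11.15, numpy 2.4.6, scipy 1.17.1 and pandas 2.3.3. Intervals are exact: Poisson for CPM, conditional binomial for ratios, Clopper-Pearson for shares, all at 95%. A gene entered a comparison with 20 UMIs in total and 20 CPM in either sum, when listed in both libraries. It was called at a ratio of 1.5-fold or more, and a count of 0 was set to 3 counts, which bounds the ratio, so such a gene could be called only in the direction the bound fixes. These calls compare libraries, not tissues. TMM factors came from edgeR 4.0.16 in R 4.3.3. The ratio code was tested on simulated data. Promoters and starts are from RefSeq (GRCm38.p6), and gene positions from the GENCODE annotation of GRCm38.

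The members and gene lists were chosen with earlier results of these data known. All 8 members are named throughout. Of the related lists, Srebf2 and Srebf1 are named, and up to 8 genes per comparison with the largest change past 1.5-fold; a few of the genes on these lists are not reported here. Alternatives covered scaling, pooling, depth, gates, dividing cells, single cells and filters.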

Additional observations from a re-analysis of the deposited data

Results flagged for a closer look

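Cells outside the compared gates also held UMIs of these genes. Both classes here exclude cells that pass the T, macrophage or mast thresholds, but plasma-marker cells can also carry B or NK/ILC1 markers and dendritic-marker cells NK/ILC1 markers. In small intestine, 179 cells with dendritic markers gave 1853 CPM (1754–1956) for the 8 members, above the 1130 CPM of T cells of that library. Fdps stood at 460 CPM, Hmgcs1 at 366 CPM, Insig1 at 317 CPM and Msmo1 at 291 CPM in them. In cecum, 24 such cells gave 1534 CPM (1297–1802), against 784 CPM in T cells. Siglech, a marker of plasmacytoid dendritic cells, had 7 UMIs in all 2428 T cells of small intestine and 1 in those of cecum, and stood at 1.09 and 0.150 CPM. Ccr9, also on the dendritic list, stood at 385 CPM in small intestine T cells.

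In small intestine, 178 cells with plasma markers gave 292 CPM (270–315) at a median of 12746 UMIs per cell. Igkc, Igha and Jchain, which make up secreted IgA, took 69.0% of their UMIs, which lowers the CPM of every other gene there. With no control samples, these sums are given because they exceed the limit that a count of 0 allows (3 UMIs), which any sum of this size does. The share of free RNA in them was not measured.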

How the results depend on the processing

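With 1 library per tissue, the libraries of a tissue could not be compared, and small gates limit the rest: stomach T cell gates, NK/ILC1 cells outside stomach and small intestine mast cells rest on few UMIs per gene. No paired analysis was possible because the labels give 1 library per tissue and no replicate numbers. Of 559 alternative values of members between tissues in T cells, 505 moved by less than their counting interval, 54 by more and 0 changed sign as called values. The 559 include Idi1 and members not called in the main run, which could not be counted as a change of sign. Values with no minimum of UMIs or CPM equal the main values by construction and are among the 505. Of 534 alternative counts of members, 474 lay within 1.5 times the main count. The 60 others follow, as numbers of members past 1.5-fold, and the cause was not tested.

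Between tissues in T cells, small intestine over cecum gave 2 higher within Cd8a-positive and 2 within other T cells. Cecum over colon gave 4 higher with the mean over cells, 4 thinned to 1000 UMIs, 4 without T cells of circulating type (chosen after seeing the data), 5 within Cd8a-positive and 4 within other T cells. Stomach against colon gave 4 lower thinned, 4 lower within Cd8a-positive and 1 higher within other T cells. Trdc-positive against other T cells gave 1 higher with stricter gates in small intestine. In cecum it gave 1 higher in cells with 1600 or more UMIs, 1 with stricter gates and 1 without dividing cells. In colon it gave 2 higher and 1 lower thinned and 0 higher with stricter gates, and in stomach 2 higher with the mean over cells and 2 with stricter gates. Cd8a-positive against other T cells gave 0 higher in small intestine and 1 in cecum with stricter gates, 1 in colon thinned, and in stomach 1 higher with the mean over cells and 0 lower thinned.

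B against T cells in stomach gave 1 higher with the mean over cells, and 1 higher and 0 lower thinned. In cecum it gave 3 lower with the mean over cells, 2 higher and 0 lower in cells with 1600 or more UMIs, 3 lower without dividing cells and 2 lower with no minimum. NK/ILC1 against T cells in stomach gave 0 lower thinned and 2 with stricter gates. In cecum it gave 4 lower thinned and 4 lower without the top cell of each gene. In colon it gave 1 higher and 5 lower thinned, 5 lower with stricter gates, 5 without dividing cells and 6 without the top cell. Stomach macrophages gave 1 higher and 0 lower without the 50 most abundant genes, 1 higher and 0 lower with TMM, 2 higher and 0 lower thinned, and 2 lower with stricter gates, without dividing cells and with no minimum. Stomach mast cells gave 4 lower without the 50 most abundant genes, 2 with TMM and 4 thinned. Dividing T cells gave 2 lower without the 50 most abundant genes and 3 thinned in small intestine, 1 lower thinned and 1 with no minimum in cecum, and 1 higher with the mean over cells, 5 higher and 1 lower thinned in colon.

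A further 34 alternative values had 0 UMIs in a sum and a bound that fixed no direction, and are not counted. In all, 2100 alternative values were compared, including members not called or not entered, which could not be counted as a change of sign. Called log2 ratios of entered members changed sign in 5 of the 2100. All 5 came with thinning: Cyp51 in stomach Cd8a-positive against other T cells (0.25), Fdps in stomach B against T cells (0.89), Hmgcs1 in stomach macrophages (0.10), Sqle in stomach mast cells (0.051) and Fdft1 in dividing cecum T cells (−0.40).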
